A study of Mus musculus with 14 samples.

Results

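Mouse embryonic fibroblasts kept for 3 h without amino acids were compared with the same cells kept for 3 h without glucose, over all genes. The comparison rests on 4 of the study's 14 bulk RNA-seq libraries, 2 from each starvation. Cells had been grown in high-glucose DMEM with fetal bovine serum, were washed, and then received DMEM lacking either amino acids or glucose, each with dialyzed serum. At the end they were taken up with trypsin-EDTA and frozen in DMSO with dialyzed serum. Both 3 h groups share all of these steps, so the medium is what the labels give as different between them. The other libraries are 2 for each starvation at 6 h and at 12 h and 2 unstarved controls at 0 h, which were frozen with ordinary in place of dialyzed serum; control levels are given below as values, without a test. Mouse strain, sex, passage, immortalization and the further composition of the starvation media are not given in the sources used here. No source states that replicates were grown as separate cultures, so p-values here measure only the spread between the libraries, which may be technical.

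Cells sense both nutrients at the mTORC1 kinase, which slows when either runs short, and autophagy then recycles cell contents in the lysosome. Missing amino acids leave transfer RNAs uncharged, which activates the kinase GCN2; it phosphorylates eIF2α, lowers general translation and raises that of the transcription factor ATF4, whose targets import and make amino acids and recharge transfer RNAs. Missing glucose starves glycolysis and the hexosamine pathway that feeds protein glycosylation in the endoplasmic reticulum (ER), where unfolded proteins raise chaperone transcription through ATF6, IRE1 with XBP1, and PERK, which also acts on eIF2α. Glucose metabolites in addition drive the MondoA transcription factor, whose classic target is Txnip.

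The 4 libraries held 42556096 and 45434214 reads after amino acid removal and 35270751 and 37089789 after glucose removal, within the range of 35270751 to 55349673 over all 14. Levels are given as CPM, the read count scaled to a common library size after TMM normalization, always with replicate 1 before replicate 2. Differences are log2 of amino acid over glucose starvation from edgeR's quasi-likelihood test, with the standard error (SE). A gene was called where the p-value adjusted by Benjamini-Hochberg over the 17696 genes tested was below 0.05. Replicates correlated at r = 0.998 across genes for amino acid and 0.996 for glucose starvation on the log2 CPM scale. Of 14 fibroblast markers 13 gave reads, Lum being at 0, while Thy1 and Fap did not pass the filter for testing. Giving reads marks no cell type by itself, as all 8 epithelial markers did so too. The summed fibroblast level was 4795 and 4760 CPM against 6191 and 6294 CPM, lower after amino acid removal. Of 11 fibroblast markers tested, 7 were lower and 1 was higher. Among markers of other cells, the summed neural markers stood at 347 and 346.9 CPM against 423.6 and 398.8 CPM, with Rbfox3, Sox2, Sox10, Olig2 and Snap25 at 0 and Nes and Tubb3 called lower. The macrophage sum (Adgre1 at 0) ranged from 25.5 to 28.2 CPM and the endothelial sum (Cldn5 at 0) from 20.5 to 24.3 CPM, and the starvations overlapped in both; Cd68 and Vwf were each called higher, Vwf at under 1 CPM and no longer without amino acid replicate 1 or without either glucose replicate. The adipocyte sum was 1.57 and 1.86 CPM against 5.87 and 4.48 CPM (Adipoq, Cidec and Lep at 0). The muscle sum ranged from 5.78 to 7.2 CPM, the epithelial sum from 33.4 to 38.9 CPM and the erythroid sum from 0.783 to 1.17 CPM, each with overlapping groups except the erythroid. In bulk RNA fewer cells of a type and less RNA per cell cannot be told apart, and the part of these markers in the results was not tested.

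At 3 h the starvations already differed in most well-measured genes. Of 17696 genes, 9625 (54.4%) were called, 4720 (26.7%) higher and 4905 (27.7%) lower after amino acid removal. Larger differences leaned to amino acid starvation: 1402 genes (7.92%) were at least 2-fold higher there and 1059 (5.98%) at least 2-fold lower. The median difference over all genes was -0.03 on the log2 scale. Calls depended on level: 21.9% of the 4318 genes below 1 CPM, 49.7% of the 3679 genes from 1 to under 8 CPM and 70.7% of the 9699 genes at 8 CPM or more were called. With so many calls, counts of list members below are to be read against 26.7% higher and 27.7% lower. Among genes at 8 CPM or more the shares were larger, with 3401 of 9699 higher and 3453 lower. Counts near these shares, such as those of the YAP and interferon lists, are no result about a list. The lists were compiled from known biology, but with earlier results of these data known, so their counts are descriptions. A gene can stand in several of them. The exons of 37.6% of tested genes overlap another gene in the annotation used; the strand used in counting is not given, so reads of such pairs cannot be told apart. Where a result turns on such a gene the partner is named with it. The values of Eif2ak1, Eif2ak2, Eif2ak3, Cebpb, Hars, Yars, Slc7a2, Nprl3, Hsp90b1, Pdia4, Pdia6, Dnajb9, Syvn1, G6pdx, Oga, Lss, Srebf1, Scd2, Cpt1b, Zfp36, Ereg, Irs1, Irs2, Atg14, Vmp1, Rragc, Ctsa, mt-Co1, Ccna2, Ccnf, Bhlhe41, Rora, Snhg1, Snhg12 and Malat1 carry the same uncertainty.

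**Figure D1:**
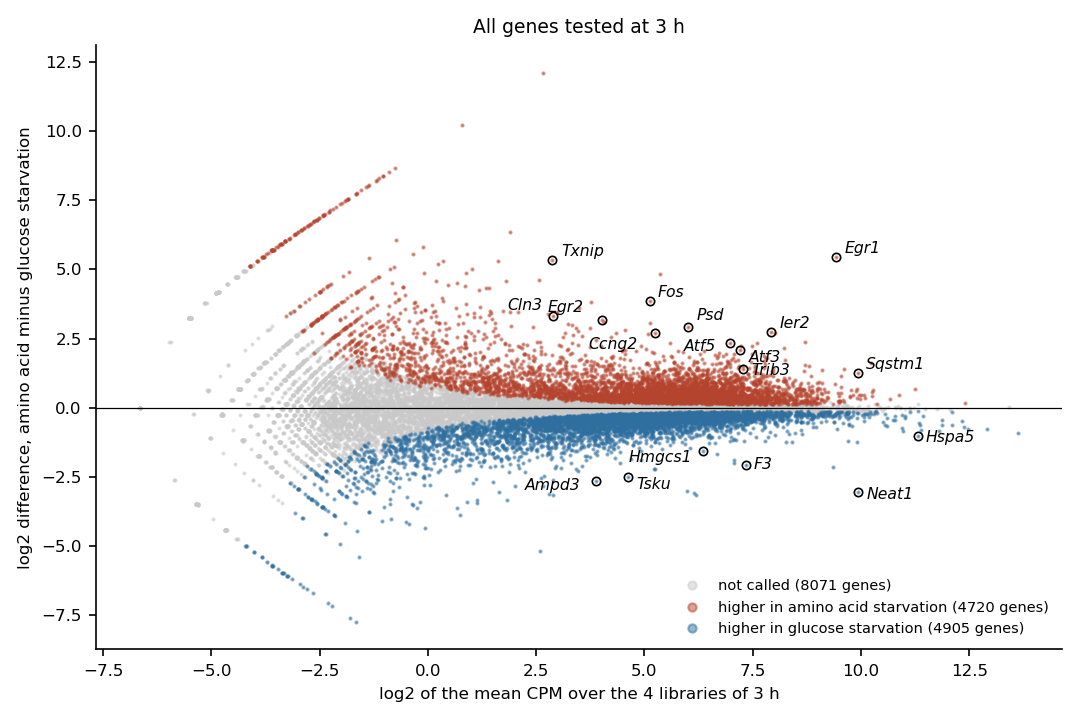
Log2 difference (amino acid minus glucose starvation, vertical axis) against log2 of the mean CPM over the 4 libraries (horizontal axis); each point is 1 of 17696 tested genes, coloured by call, with 18 named genes circled. Egr1 (5.43) and Txnip (5.32) lie far above zero and Neat1 (-3.06) far below.

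Transcription factors that respond to growth factors and stress led the highest differences. That ranking took called genes with an established symbol, groups that did not overlap and log2 CPM averaging 3 or more over the 4 libraries. Genes low in 1 starvation, such as Txnip and Angptl4, can fall outside it. Egr1, a zinc finger factor made within minutes of growth-factor or stress signals, stood at 1361 and 1343 CPM after amino acid removal, 31.2 and 31.6 CPM after glucose removal and 82.1 and 82.6 CPM in the controls. The starvations thus lay on opposite sides of the control values and far apart. The difference was 5.43 (SE 0.071, edgeR adjusted p = 9.98e-30), or 43.1-fold. Fos, a subunit of the AP-1 factor, was at 68.6 and 61.2 CPM against 4.18 and 4.74 CPM, with 5.45 and 7.23 CPM in the controls. Its difference was 3.86 (SE 0.13, edgeR adjusted p = 8.1e-20), and glucose-starved cells had slightly less of it than both controls. The related Fosb reached 63 and 61.7 CPM against 7.35 and 7.42 CPM (8.44-fold). Egr2 (8.93-fold) and Egr3 (8.51-fold) showed the same order, and their values after glucose removal were above the controls rather than below: 3.13 and 3.35 CPM against 0.698 and 1.18 CPM for Egr2.

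Over the immediate early list, genes transcribed without new protein synthesis, 22 of 23 tested members were higher, none was lower and 1 (Klf2) was not called, with a median of 1.71. Junb (689.8 and 715.7 CPM against 128.8 and 141.8 CPM) and Ier2 (410.6 and 433 CPM against 57.8 and 69.8 CPM) were abundant members. Both lay above the controls in all 4 starved libraries, and the amino-acid-starved values were several times the glucose-starved ones, at 5.19-fold and 6.61-fold. Jun, whose exons overlap the antisense gene Junos, was 3.46-fold higher. Myc, a driver of growth and ribosome production, was at 726.4 and 705.1 CPM against 377.3 and 387.6 CPM, and at 112 and 98.7 CPM in the controls. Both starvations therefore held more Myc RNA than the controls, and the amino-acid-starved cells held 1.87-fold more than the glucose-starved (edgeR adjusted p = 5.53e-14). Of the 24 listed genes 19 had a promoter window. The CArG box, the site of serum response factor, was found in 5 of 25 promoter windows of the list, all of them of Egr2 and Zfp36, against 1.63% of all 32851 windows.

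Feedback genes of the MAP kinase pathway were divided. Of 15 tested, 8 were higher and 4 lower, with a median of 0.44. The phosphatase genes Dusp16 (0.93) and Dusp8 (0.74) and the inhibitors Spry4, Spred1, Spred2 and Spred3 were higher. Dusp5, a nuclear phosphatase of ERK, went the other way at 135.4 and 140.4 CPM against 218.6 and 233.7 CPM, as did Dusp10 (-0.84); the exons of Dusp5 overlap AC137853.2. Among EGF-type ligands and their receptor, 4 of 9 were higher and 2 lower. Hbegf was at 346.1 and 341.5 CPM against 152.3 and 157.1 CPM, and Areg at 45.4 and 46.5 CPM against 19.8 and 21.2 CPM. Both ligands were over 2-fold higher after amino acid removal, as was the receptor inhibitor Errfi1 (3.15-fold), whereas the ligands Btc (-1.54, at 0.505 and 0.802 CPM against 1.63 and 2.2 CPM) and Ereg (-0.32) were lower.

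**Figure D2:**
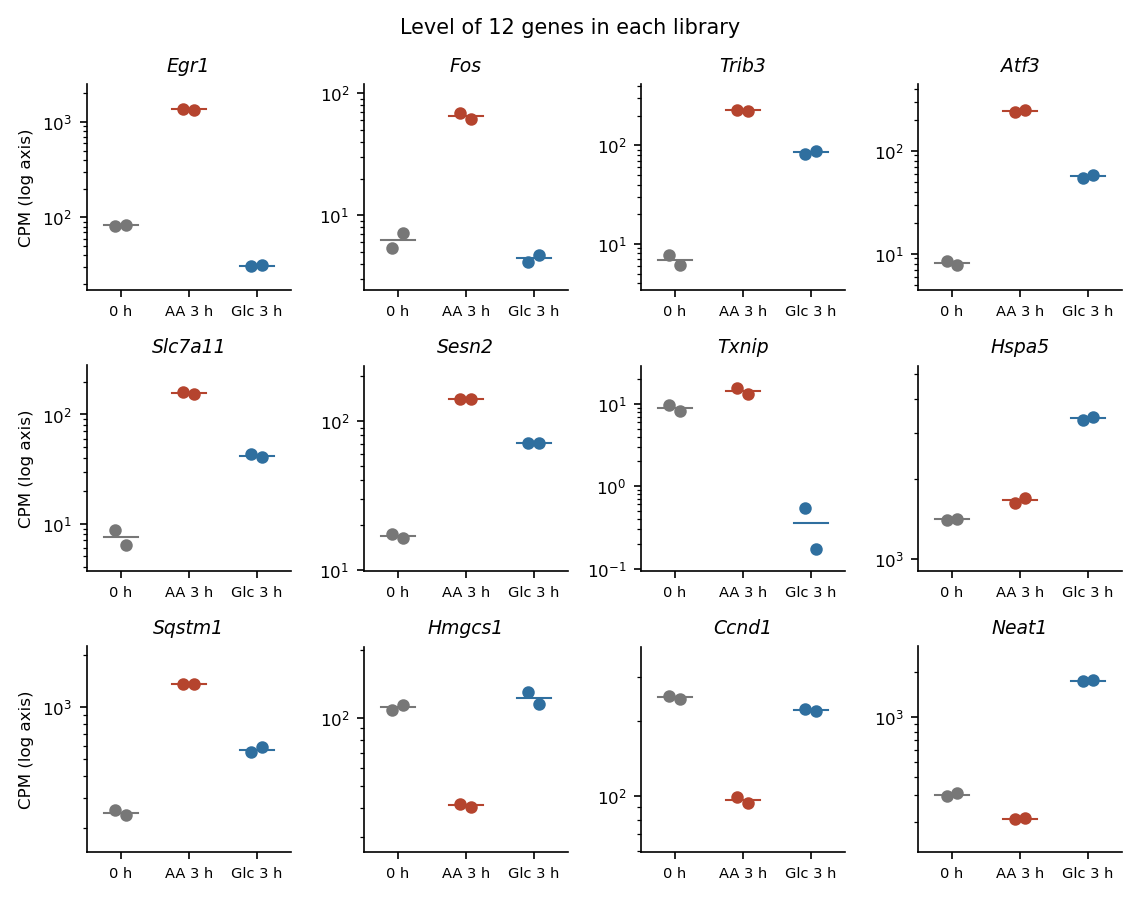
Level in CPM (log axis) of 12 genes in each control library (0 h), amino-acid-starved library (AA 3 h) and glucose-starved library (Glc 3 h); points are libraries and bars their means. In all 12 panels the replicates lie closer together than the starvations do, for example 230.4 and 223.1 against 82.4 and 87.7 CPM for Trib3.

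The main transcription factors of the integrated stress response were above the controls in both starvations and higher after amino acid removal. Trib3, a pseudokinase that restrains ATF4, was at 230.4 and 223.1 CPM after amino acid removal, 82.4 and 87.7 CPM after glucose removal, and 7.7 and 6.07 CPM in the controls. Both starvations stood well above the controls, and amino acid removal was 2.67-fold above glucose removal (log2 1.41, SE 0.063, edgeR adjusted p = 3.86e-17). Atf4 itself was at 1134 and 1174 CPM against 814.8 and 860.1 CPM, with 303.6 and 313.9 CPM in the controls. Its difference of 0.46 (SE 0.052, edgeR adjusted p = 1.33e-08) was small beside that of its partners. Atf5 (5.07-fold), whose translation is also raised by eIF2α phosphorylation, Atf3 (4.29-fold), a later repressor of the pathway, and Ppp1r15a (4.48-fold), the phosphatase subunit that reverses eIF2α phosphorylation, were all higher after amino acid removal. The exons of Atf5 and Ppp1r15a overlap Il4i1 and Tulp2. Ddit3, which encodes CHOP, a death-promoting factor of ER stress, differed least of these, at 97.1 and 100.8 CPM against 70.1 and 78.5 CPM (1.33-fold); it overlaps the methionyl-tRNA synthetase gene.

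Of 15 tested factors of this response 13 were higher and 1 lower, with a median of 1.22. Among the 4 eIF2α kinases, Eif2ak4 (GCN2) was higher by 0.19 and Eif2ak2 (PKR) by 0.54, Eif2ak3 (PERK) was lower by 0.25, and Eif2ak1 (HRI) was not called at -0.10. Replicates of Cebpb, an ATF4 partner, were further apart than those of the other factors, at 75.4 and 121.2 CPM against 35 and 49.6 CPM (1.22, SE 0.38, edgeR adjusted p = 0.028), though the groups did not overlap.

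ATF4 targets were higher as a group. Of 41 tested, 39 were higher, 1 was lower (Cdsn, -0.87) and 1 was not called (Cbs), and 17 were past 2-fold; the median was 0.81 and the range -0.87 to 3.37. Fgf21, a starvation hormone, marked the upper end at 3.38 and 3.4 CPM against 0.361 and 0.289 CPM. Slc7a11, the cystine importer, was at 159.6 and 152.5 CPM against 43.1 and 40.9 CPM, and 8.72 and 6.42 CPM in the controls. Its groups did not overlap and differed 3.72-fold. Asns, asparagine synthetase, was at 444.1 and 459 CPM against 277.6 and 292.5 CPM (1.58-fold), and Chac1, which degrades glutathione, at 245.5 and 239.6 CPM against 131.3 and 145.1 CPM (1.76-fold). Both were several times above the controls in either starvation, with 97.1 and 99.4 CPM for Asns and 12.2 and 12.1 CPM for Chac1 at 0 h. Nupr1, a small stress-induced chromatin protein, was 3.81-fold higher.

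Promoters of these targets were searched for the core of the C/EBP-ATF response element, the composite site that ATF4 and C/EBP proteins share, as TGATGNAA on both strands. RefSeq windows (GRCm38.p6) from 250 bases before to 50 after each start were used, and 34 of the 41 targets had 1. The core was in 11 of 42 windows of the list (26.2%), from 11 genes, against 3.97% of all 32851 windows. Stretches from 5 of the genes named above are shown 5′ to 3′ on the strand of the gene, with the matched bases in capitals, because they carry the element in both orientations; a match is a description and not a measured site.
Asns (chr6:7693210-7693250, minus strand): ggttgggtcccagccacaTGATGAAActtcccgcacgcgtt
Atf3 (chr1:191183418-191183461, minus strand): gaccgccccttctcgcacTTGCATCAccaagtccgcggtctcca
Chac1 (chr2:119351031-119351074, plus strand): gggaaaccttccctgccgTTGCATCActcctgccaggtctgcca
Nupr1 (chr7:126625555-126625598, minus strand): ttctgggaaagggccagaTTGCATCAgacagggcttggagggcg
Slc7a11 (chr3:50443635-50443678, minus strand): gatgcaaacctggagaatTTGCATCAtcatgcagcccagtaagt
The first base of the match lay 23 bases before the start in Asns, 110 in Atf3 and Nupr1, 193 in Chac1 and 47 in Slc7a11, which has another match beside it.

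Genes that import and use amino acids followed. Of 22 amino acid transporters tested 11 were higher and 2 lower, with a median of 0.47. Slc38a2, the adaptive carrier of small neutral amino acids, was at 1819 and 1816 CPM against 610.4 and 564.4 CPM, with 437.6 and 441.5 CPM in the controls. Slc7a1, the arginine and lysine carrier, was at 1175 and 1101 CPM against 456 and 408 CPM, with 109.4 and 110.5 CPM in the controls. The separation of the starvations was 3.09-fold for Slc38a2 and 2.63-fold for Slc7a1. Slc1a4 (1.52), Slc1a5 (0.94) and Slc7a5 (0.44), carriers of neutral amino acids, were also higher, whereas Slc43a1 (-1.28) and Slc7a2 (-1.04) were lower.

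Transfer RNA synthetases were mostly but not uniformly higher: 13 of 20 were higher, 4 lower and 3 not called, with a median of 0.22. Nars, which charges the asparagine transfer RNA, was at 930.4 and 943 CPM against 547.2 and 570.3 CPM (1.68-fold); Iars (0.68), Tars (0.66) and Yars (0.64) were close to it. Farsa (-0.54), Kars (-0.44), Mars1 (-0.41, overlapping Ddit3) and Hars (-0.29) were lower. In serine and folate metabolism, which supplies nucleotide synthesis, 9 of 12 were higher and 1 lower, with a median of 0.37. Psat1, of serine synthesis, was at 1184 and 1199 CPM against 736.8 and 749.2 CPM (1.6-fold), Mthfd2, of mitochondrial folate metabolism, was higher by 0.67 and Psph, which completes serine synthesis, by 0.56; Psph overlaps Cct6a.

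Brakes on mTORC1 were also higher in part: of 18 tested 10 were higher and 4 lower, with a median of 0.32. Sesn2, a leucine sensor that restrains mTORC1, was at 140.5 and 139.7 CPM against 70.5 and 70.4 CPM, and at 17.5 and 16.3 CPM in the controls. Ddit4, which acts through the TSC complex, was at 191.4 and 186.1 CPM against 61.3 and 66.5 CPM, and at 20 and 17.8 CPM in the controls. Both were above the controls in each starvation and higher after amino acid removal, by 1.99-fold and 2.95-fold. Akt1s1 (1.10, overlapping Tbc1d17) and the S-adenosylmethionine sensor Bmt2 (0.71) were higher. The arginine sensors were split, Castor2 being higher by 0.39 and Castor1 lower by 0.74, and Nprl3 of the GATOR1 complex was lower by 0.76.

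**Figure D3:**
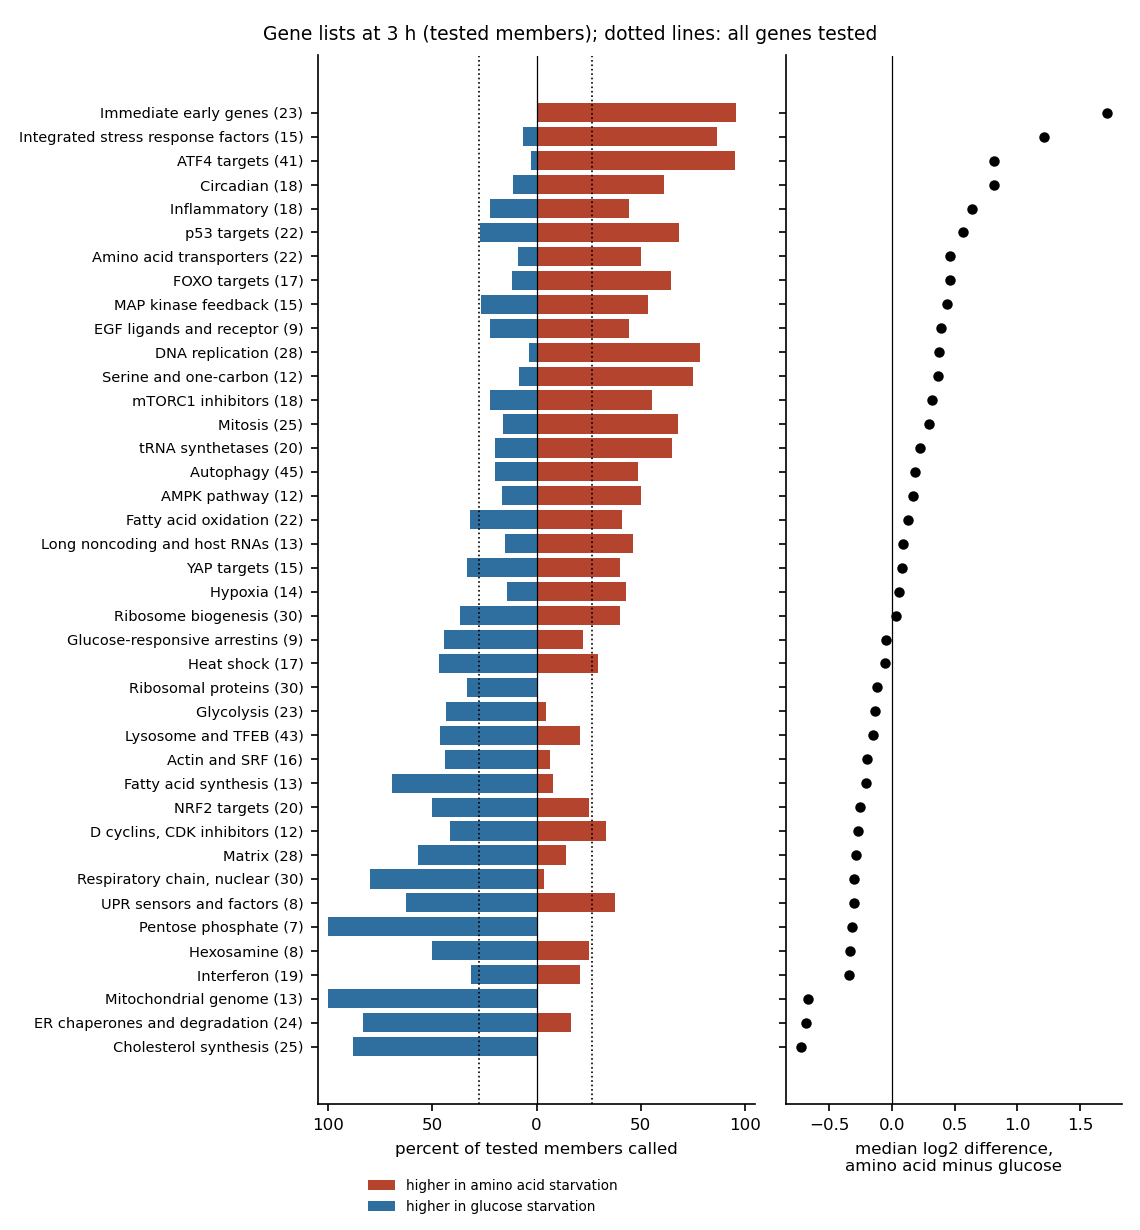
Left, percent of the tested members (number in brackets) of 40 gene lists called higher after amino acid removal (right of zero) or higher after glucose removal (left of zero), with dotted lines at 26.7% and 27.7% for all genes; right, median log2 difference of the members. Immediate early genes (1.71) have the highest median and cholesterol synthesis (-0.73) the lowest.

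ER chaperones ran against the ATF4 targets. Hspa5, the main chaperone of the ER lumen (BiP), was at 1634 and 1705 CPM after amino acid removal, 3362 and 3426 CPM after glucose removal, and 1412 and 1424 CPM in the controls. Amino-acid-starved cells were near the controls and glucose-starved cells 2.03-fold above the amino-acid-starved (log2 -1.02, SE 0.052, edgeR adjusted p = 8.55e-16). Of 24 chaperone and ER-associated degradation genes 20 were lower and 4 higher after amino acid removal, with a median of -0.69. Pdia4 (-1.24), a disulfide isomerase, was at 177.2 and 187.4 CPM against 429.9 and 431 CPM, with 302.1 and 306.8 CPM in the controls. Its amino-acid-starved values thus lay below the controls and its glucose-starved values above. Sdf2l1 (-1.45), Creld2 (-1.05), Hsp90b1 (-0.84) and Calr (-0.74) were lower as well.

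The 4 members that were higher were Herpud1, Dnajb9, Derl1 and Derl3. Herpud1, of the degradation complex and also in the ATF4 list, was at 474.8 and 477.7 CPM against 277.1 and 299.2 CPM, with 76.4 and 73.8 CPM in the controls. Dnajb9, a cochaperone of BiP, was at 50.9 and 50.3 CPM against 21.7 and 20.8 CPM; Derl1 was higher by 0.31, and Derl3 stayed under 1.1 CPM. The transducers divided in the same manner: Ern1, which encodes IRE1 (1.28), and Atf6 (1.05) were higher, whereas Xbp1, the substrate of IRE1, was lower by 0.80 at 60.9 and 64.3 CPM against 107.2 and 110.7 CPM, with 64.3 and 66.5 CPM in the controls. Of the 8 sensors and factors 3 were higher and 5 lower.

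The ER stress element, which ATF6 and XBP1 bind with NF-Y, was searched as CCAAT and CCACG set 9 bases apart, on both strands, in the same RefSeq windows. It was in 9 of 22 windows of the chaperone list (40.9%), from 9 of the 21 genes with a window, and in 39 of all 32851 windows (0.119%). The genes were Calr, Canx, Creld2, Derl3, Dnajc3, Hsp90b1, Hspa5, Pdia6 and Syvn1; all but Derl3 were lower after amino acid removal. Stretches from 4 of them are shown with the match in capitals, to set the element of Hspa5 beside those of chaperones on the same side.
Hspa5 (chr2:34772007-34772061, plus strand): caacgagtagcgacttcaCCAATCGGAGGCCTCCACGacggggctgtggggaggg
Pdia6 (chr12:17266473-17266527, plus strand): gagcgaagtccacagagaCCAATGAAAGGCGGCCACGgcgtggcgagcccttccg
Hsp90b1 (chr10:86705515-86705569, minus strand): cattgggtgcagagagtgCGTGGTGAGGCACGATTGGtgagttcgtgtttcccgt
Creld2 (chr15:88819502-88819556, plus strand): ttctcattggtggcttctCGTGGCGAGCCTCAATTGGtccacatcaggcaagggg
The element runs in the direction of the gene in Hspa5 and Pdia6 and against it in the stretches of Hsp90b1 and Creld2.

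**Figure D4:**
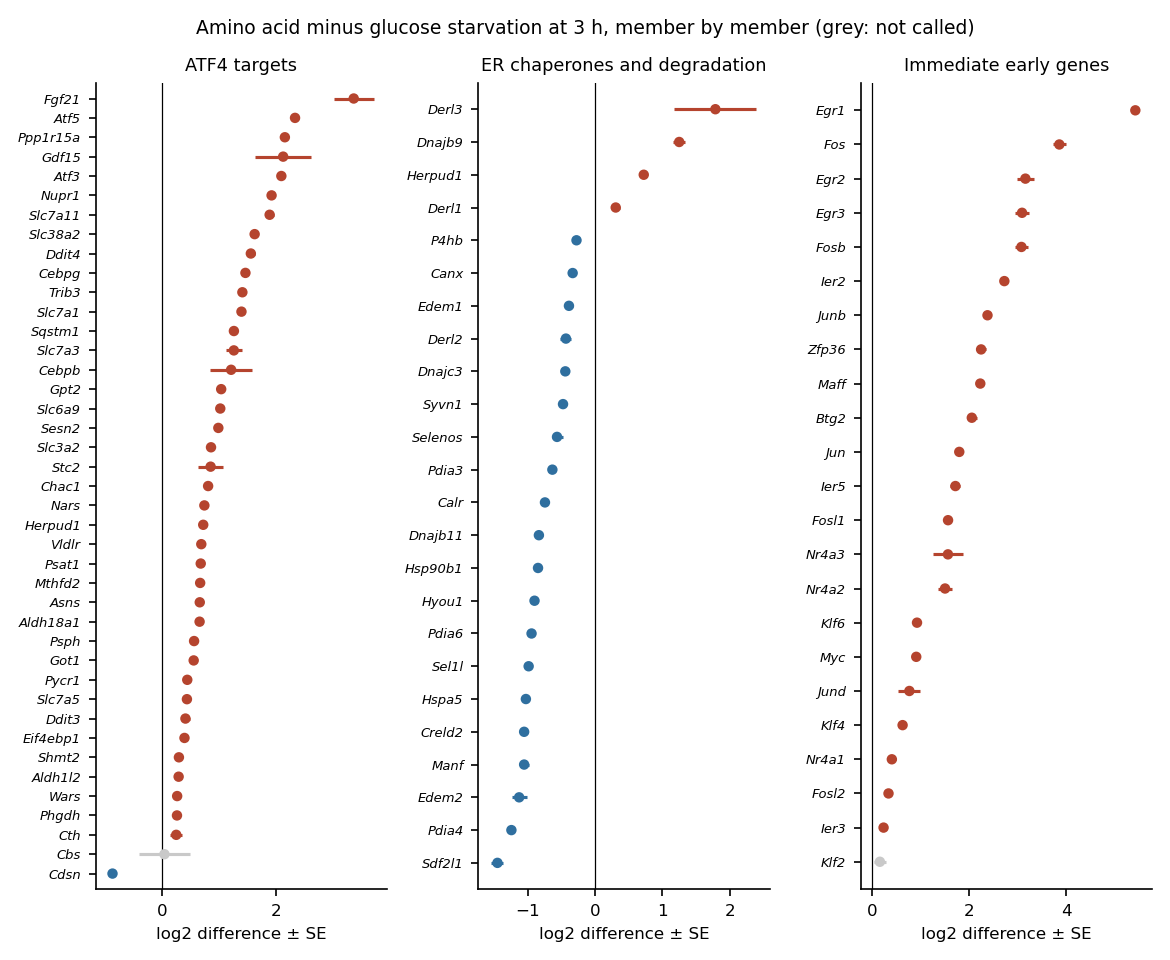
Log2 difference with SE (horizontal axis) for each tested member of the ATF4 target, ER chaperone and immediate early lists; red members were called higher after amino acid removal, blue members higher after glucose removal, grey members were not called. ATF4 targets lie to the right of zero (39 of 41), as do immediate early genes (22 of 23), and Derl3, Dnajb9, Herpud1 and Derl1 stand apart from the other ER genes.

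The list of glucose-responsive arrestin genes also holds Mondo factors and other genes, and its members did not move together. Txnip, an arrestin that inhibits thioredoxin and glucose uptake, was at 15.5 and 13.1 CPM after amino acid removal, 0.542 and 0.173 CPM after glucose removal and 9.59 and 8.28 CPM in the controls. Glucose-starved cells had nearly none, and amino-acid-starved cells more than the controls. The difference was 5.32 (SE 0.22, edgeR adjusted p = 1.57e-17), or 40.1-fold, and rests on few reads in the glucose-starved libraries; Txnip overlaps Gm15441 on the opposite strand. Its paralog Arrdc4 was at 0.556 and 0.896 CPM against 0.843 and 0.635 CPM. The Arrdc4 groups overlapped, and it was not called (-0.02, edgeR adjusted p = 0.975); its direction turned to 0.28 without amino acid replicate 1 and 0.19 without glucose replicate 1. Of the 9 tested members of this list 2 were higher and 4 lower, with a median of -0.05. The carbohydrate response element, the MondoA and ChREBP site, was searched as CACGNG and CNCGNG set 5 bases apart, on both strands. Of the 10 listed genes 9 had a window. The element was in 1 of 12 windows of the list, that of Txnip, and in 0.365% of all windows.
Txnip (chr3:96557854-96557906, plus strand): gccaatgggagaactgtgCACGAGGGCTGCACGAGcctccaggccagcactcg
The stretch is 5′ to 3′ on GRCm38.p6 with the match in capitals, 85 bases before the start, and is shown because Txnip had the highest difference of this list.

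Glycolysis genes were flat or lower after amino acid removal: of 23 tested, 10 were lower, 1 higher and 12 not called, with a median of -0.14. Slc2a1, the main glucose importer of fibroblasts, was at 78.3 and 70.4 CPM against 129.7 and 125.6 CPM, with 57 and 64.9 CPM in the controls. Both starvations were above the controls, glucose removal more so (log2 -0.78, SE 0.067, edgeR adjusted p = 6.7e-11; it overlaps Gm12868). Hk2, which traps glucose as its phosphate, was lower by 0.27, and Pfkp, the platelet-type phosphofructokinase, was the member that was higher, by 0.33 (it overlaps Pitrm1). All 7 pentose phosphate genes were lower, with a median of -0.32 and G6pdx at -0.56. In the hexosamine pathway Gfpt1, its entry enzyme, was lower by 0.56 and Nagk, which salvages the sugar, by 1.21. The pair that adds and removes O-GlcNAc on proteins was higher: Ogt by 0.58 and Oga by 1.70, the latter at 329.4 and 335.9 CPM against 104 and 100.9 CPM. Glucose-starved values of Oga were near those of the controls, 96.8 and 104.1 CPM.

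Sterol genes were the list lowest after amino acid removal. Of 25 tested, 22 were lower, none was higher and 3 were not called, with a median of -0.73. Hmgcs1, an early enzyme of cholesterol synthesis, was at 42 and 40.7 CPM after amino acid removal, 130 and 115.7 CPM after glucose removal and 108.5 and 114.5 CPM in the controls. Glucose-starved cells were thus near the controls and amino-acid-starved cells well below. The difference was -1.57 (SE 0.063, edgeR adjusted p = 3.64e-18); Hmgcs1 overlaps Gm48342. Dhcr7 (-1.69) and Lss (-1.33), enzymes along the same pathway, were lower too. The sterol regulatory element TCACNCCAC was searched on both strands, and 17 of the 25 genes had a window. It was in 1 of 20 windows of the list, that of Hmgcs1, against 1.24% of all windows.

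Fatty acid synthesis went the same way with smaller sizes, 9 of 13 being lower and 1 higher (Acacb, 0.90), with a median of -0.21; Srebf1, its regulator, was lower by 0.44 and Scd2 by 0.47. Fatty acid use was mixed over the list, with 9 of 22 higher and 7 lower. Angptl4, an inhibitor of lipoprotein lipase and the highest member, was at 17.8 and 18 CPM against 2.05 and 2.4 CPM. Pdk4, which turns pyruvate away from oxidation, was at 54.9 and 52.8 CPM against 11.4 and 13 CPM. The libraries of each starvation were far apart in both, 8.02-fold and 4.4-fold. The acyl-CoA thioesterases Acot1 (2.48) and Acot2 (2.09), Cpt1b (1.41) and the lipid droplet coat gene Plin2 (1.02) were higher, and Cpt2 (-0.82) and Pparg (-1.85) lower.

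Autophagy genes were higher more often than lower: of 45 tested 22 were higher and 9 lower, with a median of 0.18. Sqstm1, which encodes the cargo receptor p62, was at 1366 and 1369 CPM against 551 and 587.5 CPM, and at 255.5 and 238.3 CPM in the controls. Map1lc3b, the LC3 protein of the autophagosome membrane, was at 187.3 and 189.4 CPM against 105.3 and 120.3 CPM, and at 106.1 and 107 CPM in the controls. Sqstm1 was above the controls in both starvations, whereas Map1lc3b was above them after amino acid removal and near them after glucose removal. The differences were 1.26 (SE 0.053, edgeR adjusted p = 9.96e-18) and 0.74 (SE 0.06, edgeR adjusted p = 2.15e-11); Map1lc3b overlaps Zcchc14. Ulk1, the kinase that starts autophagy, was at 82.7 and 73 CPM against 34.4 and 29.6 CPM, with 49.2 and 48.7 CPM in the controls between them. Gabarapl1 (1.40, overlapping 1700101I11Rik), Wipi2 (1.07) and Atg14 (1.03), of membrane formation, were higher; Atg4a (-0.65), Vmp1 (-0.62) and the mitophagy receptor Fundc1 (-0.56) were lower.

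Lysosomal genes leaned the other way. Of 43 tested, 9 were higher and 20 lower, with a median of -0.15. Among the regulators, Tfe3 (0.79) and Tfeb (0.79), which switch on lysosomal genes, were higher, as were Flcn (0.41), Fnip1 (0.89) and Rragc (0.48), which tie them to mTORC1. Their paralogs did not follow: Fnip2 was lower by 0.46, and Mitf (-0.43) and Rragd (0.24) were not called. The lower genes were mostly enzymes and membrane proteins, such as Naglu (-0.90), Neu1 (-0.67), Ctsa (-0.46) and the calcium channel gene Mcoln1 (-0.48). Cln3 was the highest of the list at 14.1 and 12.8 CPM against 1.48 and 1.21 CPM, but it overlaps Apobr. Of 12 AMPK pathway genes 6 were higher and 2 lower; the catalytic subunit Prkaa1 was higher by 0.63.

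Cell cycle genes pointed to no single direction. Cdkn1a, the CDK inhibitor p21, was at 288.2 and 280.8 CPM against 74.3 and 75 CPM, with 24.6 and 23.9 CPM in the controls. Ccnd1, cyclin D1, which growth factors raise in G1, was at 98.8 and 93.1 CPM against 223 and 219.7 CPM, with 253.5 and 246.3 CPM in the controls. Each gene was thus further from the controls after amino acid removal, in opposite directions, by 1.93 (edgeR adjusted p = 1.55e-21) and -1.21 (edgeR adjusted p = 2.33e-16) between the starvations; they overlap AC167363.2 and LTO1. DNA replication genes were nonetheless higher after amino acid removal in 22 of 28, with 1 lower and a median of 0.37, led by E2f2 (1.63), Cdc6 (1.25) and Cdt1 (1.14). Mitosis genes were higher in 17 of 25 and lower in 4, with a median of 0.29. Kif11 (0.76), Aurka (0.99) and Ect2 (1.06) were among the higher, and Ccnb2 (-0.37), Ccna2 (-0.30) and Ccnf (-0.55) among the lower.

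The p53 list holds Trp53 itself beside its targets, and the FOXO list holds FOXO factors and insulin feedback genes beside targets. Their counts are therefore not counts of targets alone. Of 22 genes in the p53 list 15 were higher and 6 lower, with a median of 0.57. In the FOXO list 11 of 17 tested genes were higher and 2 lower, with a median of 0.46. Ccng2, an atypical cyclin in both lists, was at 64.4 and 67.6 CPM against 10 and 10.1 CPM, with 11 and 14.5 CPM in the controls. Glucose-starved cells were below the controls, and amino-acid-starved cells were 6.55-fold above the glucose-starved. Gadd45a (1.60, overlapping E230016M11Rik), Gadd45b (1.64), Btg2 (2.05) and Bbc3 (1.37), which act in growth arrest and cell death, were higher, and Gadd45g was lower by 0.69. Within the FOXO list Bcl2l11 (1.39), the factor Foxo3 (1.27) and Irs2 (0.93) were higher and Irs1 (-0.81) lower.

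Transcripts of the mitochondrial genome were lower after amino acid removal in all 13 protein genes, from -0.90 to -0.37. The mt-Co1 gene, a subunit of cytochrome oxidase, was at 8702 and 8960 CPM against 16330 and 16670 CPM, with 10060 and 11180 CPM in the controls. Amino-acid-starved cells were thus below and glucose-starved cells above the controls. The share of all reads from the mitochondrial genome was 3.95% and 4.04% against 6.58% and 6.5%, with 4.92% and 5.89% in the controls; its relation to RNA quality was not tested. Nuclear genes of the respiratory chain were lower in 24 of 30 and higher in 1 (Sdhd, 0.20), with a median of -0.30 and Ndufv2 at -0.83; without glucose replicate 2 the calls fell from 25 to 14. Ribosomal protein genes were lower in 10 of 30, near the share of all genes at 8 CPM or more, and higher in none, with a median of -0.12. That count rests on single libraries: it was 6 without amino acid replicate 1, 21 without glucose replicate 1 and 5 without glucose replicate 2. Ribosome biogenesis genes were divided, 12 of 30 being higher and 11 lower.

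Matrix genes were more often lower than higher after amino acid removal. The summed fibroblast markers, which share several of them, were lower too. Of 28 matrix genes 16 were lower and 4 higher, with a median of -0.29. Col1a1, the main collagen chain, was below the controls in both starvations, at 1231 and 1192 CPM against 1951 and 1874 CPM, with 2485 and 2219 CPM at 0 h. Col6a3 (-1.59) and Col1a2 (-0.76) were lower, and the collagenase gene Mmp13 was higher (2.38).

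Of 16 actin and SRF genes 7 were lower, 1 was higher and 8 were not called, with a median of -0.20. The lower count was not far above the share of all genes at 8 CPM or more and is no result about the list. Actb was at 2629 and 2558 CPM against 4590 and 4608 CPM, and Cnn2 was lower by 1.25. The YAP list holds targets together with Yap1, Wwtr1 (TAZ), Tead1 and Lats2, so its counts are not counts of targets alone. Of its 15 genes 6 were higher, Wwtr1 (0.60) and Lats2 among them, and 5 lower. The lower ones held the secreted matricellular genes Ccn1 (503.3 and 502.7 CPM against 1120 and 1186 CPM) and Ccn2 (-0.63, overlapping Gm15270). Mixed results were also found for the heat shock list, with 5 of 17 higher and 8 lower, where Hspa8 was lower by 0.62 and Hspb8 higher by 0.64.

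Secreted signals divided. Of 18 inflammatory genes 8 were higher and 4 lower, with a median of 0.64. Cxcl1, a neutrophil attractant, was at 77.5 and 77.4 CPM against 23.6 and 26.3 CPM, and Ptgs2, the inducible prostaglandin synthase, at 728.4 and 697.5 CPM against 513.8 and 458.3 CPM. Glucose-starved Cxcl1 was level with the controls (24.2 and 28.4 CPM), whereas Ptgs2 was far above them (29.1 and 31.1 CPM) in both starvations. Cxcl12 went the other way, at 49.2 and 49 CPM against 156.7 and 153.4 CPM, as did Csf1 (-0.52). Vegfa, the vascular growth factor, was at 639.1 and 640.3 CPM against 437.5 and 444.1 CPM, with 34.7 and 35.1 CPM in the controls. Its difference of 0.54 was small beside its distance from the controls in either starvation. Of 14 hypoxia genes 6 were higher and 2 lower, the calls falling from 8 to 5 without amino acid replicate 2. F3, tissue factor, was at 65.1 and 60.6 CPM against 260.5 and 260.3 CPM, with 16.5 and 15.1 CPM in the controls.

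Lists with calls on both sides included that of NRF2 targets, which also holds Nfe2l2, the gene of NRF2 itself. In it 5 of 20 genes were higher and 10 lower, with a median of -0.25. The small Maf gene Mafg was higher (1.45, overlapping Sirt7), and Nqo1 and Hmox1 were lower. Interferon genes had 4 of 19 higher and 6 lower. Of 18 clock genes 11 were higher and 2 lower, with a median of 0.81; the repressors Nfil3 (1.71), Nr1d2 (1.44) and Nr1d1 (1.19, overlapping Thra) were higher, as was Rora (1.57), the activator that opposes the Nr1d pair, and Bhlhe41 (-1.86) and Per3 (-0.45) lower.

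Among noncoding RNAs Neat1, the scaffold of nuclear paraspeckles, had the lowest difference of all genes in the ranking by the same rule. It was at 208.9 and 212.1 CPM after amino acid removal, 1731 and 1771 CPM after glucose removal and 297.2 and 309.8 CPM in the controls. Glucose-starved cells stood alone above the others, by 8.32-fold over the amino-acid-starved (log2 -3.06, SE 0.057, edgeR adjusted p = 7.83e-26). Small genes such as Gm27505 lie within Neat1 on its strand. Its neighbour Malat1 was not called (-0.46, edgeR adjusted p = 0.075). The snoRNA host genes Zfas1 (1.28), Snhg1 (1.07) and Snhg12 (0.96) were higher; 6 of 13 genes of this list were higher and 2 lower, and calls fell from 8 to 5 without amino acid replicate 2.

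Beyond the lists, the genes at the ends of the ranking included Psd (116.5 and 112.2 CPM against 14.7 and 15.2 CPM), which overlaps Nfkb2, and Mast1 (24.3 and 23.1 CPM against 3.64 and 2.74 CPM), which overlaps Dnase2a. Tcp11l2, without such an overlap, was at 42 and 40.2 CPM against 6.2 and 5.49 CPM. The groups of these genes were 7-fold or more apart. At the other end, Ulk3, a kinase of the ULK family, was at 13.5 and 13.3 CPM against 58.3 and 66.3 CPM, with 16.7 and 19.7 CPM in the controls. Foxc2, a mesenchymal transcription factor, was at 12.5 and 13.9 CPM against 57.7 and 64.2 CPM, with 10.6 and 10 CPM in the controls. Both were near control levels after amino acid removal and raised after glucose removal. Tsku (7.5 and 7.31 CPM against 40.2 and 42.8 CPM), a secreted Wnt and TGF-β modulator, was below the controls (25.9 and 23.1 CPM) in the former and above them in the latter, as was Ampd3 (3.69 and 4.32 CPM against 25.8 and 24.6 CPM), an AMP deaminase whose exons overlap Rnf141.

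The contrast between the starvations was compared with that at 6 h and 12 h, where it rests on other libraries. At 6 h 11295 genes (63.8%) and at 12 h 11341 genes (64.1%) were called. Of the 4720 genes higher after amino acid removal at 3 h, 3837 (81.3%) were called higher at 6 h, where they made up 68.8% of the 5573 higher genes, and 2964 (62.8%) at 12 h, where they made up 51.5% of 5757. Of the 4905 lower genes, 3863 (78.8%, and 67.5% of the 5722 at 6 h) and 2973 (60.6%, and 53.2% of the 5584 at 12 h) stayed on that side. Opposite calls grew from 179 to 693 among the higher and from 125 to 675 among the lower genes. The change of the contrast from 3 h to 12 h was itself called for 8395 genes (47.4%), 1368 of them with opposite calls at the ends.

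Stress and nutrient lists parted ways over time. The median of the ATF4 targets went from 0.81 at 3 h to 0.77 at 6 h and -0.14 at 12 h, where 10 of 41 were higher and 20 lower. Immediate early genes had a median of 1.53 at 6 h, with 17 of 23 higher and 4 lower, and of 1.20 at 12 h, with 16 higher and 6 lower. ER chaperones moved from -0.69 to -1.11 and -1.74, with 22 of 24 lower at 12 h, and cholesterol genes from -0.73 to -2.30 and -1.74, with all 25 lower at both later times. Glycolysis genes, mostly not called at 3 h, were lower in 19 of 23 at 6 h and 20 of 23 at 12 h. Ribosomal protein genes were lower in all 30 at 12 h. Mitosis genes went from 0.29 to 0.70 and 1.44, with all 25 higher at 12 h. Matrix genes went from -0.29 to -1.48 at 12 h, and transcripts of the mitochondrial genome, all lower at 3 h, were split at 12 h with 4 higher and 6 lower. Single genes differed as much: Egr1 stayed higher at 12 h by 3.88 and Txnip by 4.85, while Hspa5 reached -2.11.

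Some of the genes described above turned over. Atf3 was 2.10 higher at 3 h and 1.56 lower at 12 h, where it was at 43 and 46.3 CPM after amino acid removal and 131.4 and 133 CPM after glucose removal. The change in its difference was -3.67. Ddit3 (-1.68 at 12 h), Ddit4 (-1.22) and Herpud1 (-1.89) also crossed from higher to lower, as did Ptgs2, Vegfa and Sqstm1 among the 30 genes chosen for description, of which 7 crossed in all. Herpud1 reached 761.6 and 773.4 CPM after 12 h without glucose against 206.4 and 206.7 CPM without amino acids, on the side of the other ER genes at that time. Gas1, a growth arrest gene, crossed the other way, from 4.04 and 3.54 CPM against 18.9 and 17.7 CPM at 3 h to 4.64 and 3.89 CPM against 2.27 and 2.47 CPM at 12 h. Its amino-acid-starved level hardly moved while the glucose-starved level dropped; Gas1 overlaps Gm48488.

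**Figure D5:**
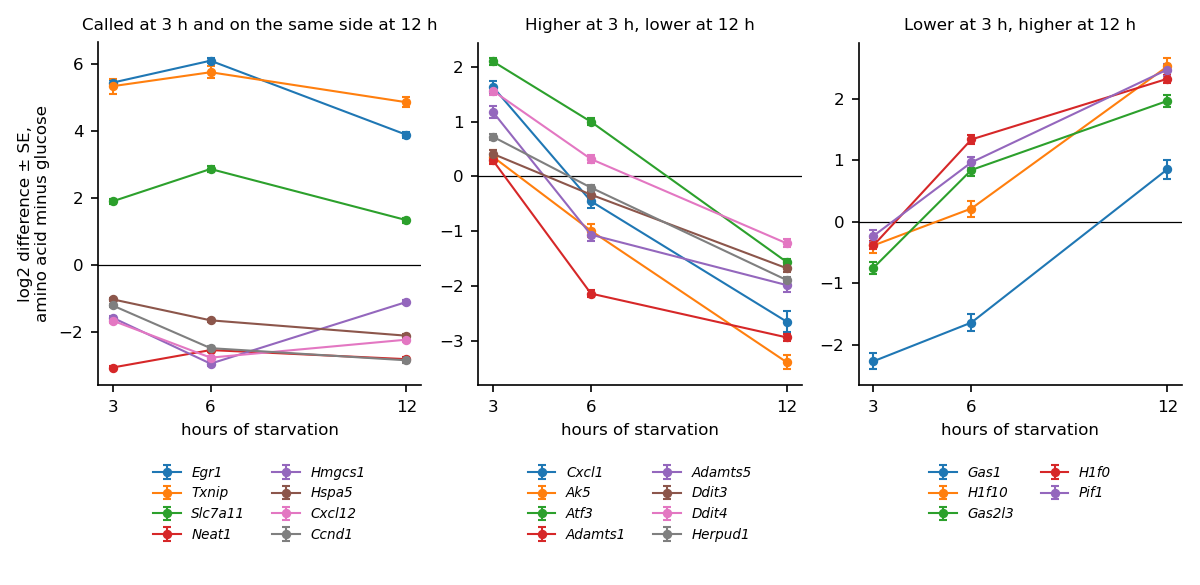
Log2 difference with SE (amino acid minus glucose starvation, vertical axis) at 3, 6 and 12 hours of starvation (horizontal axis) for genes that kept their side, genes that went from higher to lower and genes that went from lower to higher. Each line is a gene; Atf3 passes from 2.10 to -1.56 and Gas1 from -2.27 to 0.85.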

How the data were processed

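The series holds 14 bulk RNA-seq libraries of mouse fibroblasts, in 7 groups of 2. The authors deposited 1 table of raw read counts per transcript row; per the submitters' processing notes the build was GRCm39 and the tools were STAR and bedtools, and their versions, the annotation release and the strand used in counting are not given in the sources used here. For each of 40800 gene symbols the transcript row with the highest sum over the 14 count columns was kept; rows that name no gene (58) held 0% of the reads. Counts were fitted with edgeR 4.0.16 (R 4.3.3, limma 3.58.1): filterByExpr, TMM scaling, robust quasi-likelihood fit over all 14 libraries with a mean for each group, 7 residual degrees of freedom, Benjamini-Hochberg adjustment over 17696 genes. The SE is the log2 difference divided by the square root of F. On counts simulated from these libraries for this comparison (16696 genes), 77.6%, 95.5% and 100% of genes changed by 0.5, 1 and 2 on the log2 scale were recovered. Of 193 calls 11 were false. The changed genes (67, 67 and 66) all had a mean of 1 CPM or more and were far fewer than the calls in the data. Recovery at lower levels, or with as many changes as here, was not tested.

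The comparison, genes and lists were chosen with earlier results of these data known. Named genes are a panel of 30, the 10 highest and 10 lowest differences among called genes (established symbol, log2 CPM averaging 3 or more), from each of 48 lists the called members with the smallest p (4 at most), and the 5 highest and 5 lowest changes among genes whose call reversed by 12 h; further list members are given to complete a list. Some genes that the rule names are not reported here. Gene overlaps come from GENCODE M21 (GRCm38) by name, without coordinates, and promoter sequences from RefSeq (GRCm38.p6). Alternatives were other scalings and filters, DESeq2 1.42.0, a replicate block, fitting the 4 libraries alone, the mean of transcript rows, mitochondrial transcripts left out, each library left out, and overlapping genes left out.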

Additional observations from a re-analysis of the deposited data

Results flagged for a closer look

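Genes are given here whose contrast between the starvations changed from 3 h to 12 h by a direct edgeR test of that change and was called in opposite directions at the ends. Lower after amino acid removal at 3 h and higher at 12 h were Gas1 (change 3.12 on the log2 scale), the linker histone genes H1f10 (2.91) and H1f0 (2.71), the cytoskeletal linker Gas2l3 (2.72) and the helicase gene Pif1 (2.71). H1f0 was at 99.3 and 100.2 CPM against 127.5 and 133.3 CPM at 3 h and at 306.7 and 344.8 CPM against 62.8 and 67.3 CPM at 12 h, so the libraries of the starvations did not overlap at either time. The 3 h differences of some of these were small, and their calls were lost in some settings. H1f10 (-0.39) was not called without amino acid replicate 1 (-0.31) or without glucose replicate 2 (-0.27). Pif1 (-0.23) was not called without amino acid replicate 2 (-0.12), glucose replicate 1 (-0.20) or glucose replicate 2 (-0.27), nor by DESeq2 with all libraries (-0.23).

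Higher at 3 h and lower at 12 h were Cxcl1 (change -4.29), the adenylate kinase gene Ak5 (-3.75), Atf3 (-3.67) and the secreted proteases Adamts1 (-3.23) and Adamts5 (-3.16). Cxcl1 fell to 1.1 and 0.642 CPM after amino acid removal at 12 h, against 5.65 and 5.21 CPM after glucose removal. Adamts1 was at 142 and 143.6 CPM against 120.7 and 112.5 CPM at 3 h and at 10.4 and 9.65 CPM against 77.4 and 76.4 CPM at 12 h. Ak5 (0.36 at 3 h) was not called without amino acid replicate 2 (0.28) or without glucose replicate 1 (0.29). Of the panel genes, Ddit4 (-2.79), Herpud1 (-2.62), Ddit3 (-2.09), Ptgs2 (-2.09), Sqstm1 (-1.41) and Vegfa (-0.85) changed in this way. Sqstm1 was at 773.4 and 762.1 CPM against 843 and 852.5 CPM at 12 h, a difference of -0.14. H1f10, H1f0 and Ak5 overlap other genes, and the source of their reads is uncertain.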

How the results depend on the processing

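The count of 9625 genes called at 3 h lay between 8141 and 8912 when any library of these groups was left out and between 8919 and 9779 in the other settings that kept overlapping genes (DESeq2 9343); calls higher after amino acid removal were 46.2% to 51.3% of all calls in every setting run, and scaling moved the median of all genes by at most 0.01. With overlapping genes left out, a setting chosen after seeing the data, 10715 genes were tested, 5952 were called and 1538 were past 2-fold (2461 with them). Calls of the change from 3 h to 12 h ranged from 7614 to 8945. Replicate numbers did not pair the libraries: deviations of same-numbered libraries correlated at 0.043 between the 3 h groups, and from -0.035 to 0.054 over 21 pairs of groups. A fit with a replicate block called 9779 genes. Of the named genes, Arrdc4, not called, changed sign: 0.001 under a stricter filter, 0.005 with overlapping genes left out, and -0.40 to 0.28 when a library was left out. The calls of Vwf, H1f10, Pif1 and Ak5 were lost in some settings. The 6 h, 12 h and change results were not run with mean transcript rows or mitochondrial transcripts left out, and the 6 h and 12 h results not with a library left out. Of genes below 1 CPM 21.9% were called, and the part of depth in this was not tested.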

Other observations

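Some genes gave reads in 1 starvation and none in the other; the genes given here were chosen after their values were seen. Of the 9625 called genes, 98 had no read in either glucose-starved library and 28 none in either amino-acid-starved library at 3 h. The glucose-starved libraries were shallower (35270751 and 37089789 reads against 42556096 and 45434214), and the part of depth in these counts was not tested. The share of all tested genes with such zeros was not counted. A called gene without reads in 1 starvation is higher in the other by construction, so these counts are a description and no result. Gm49132 was at 12.7 and 12.5 CPM after amino acid removal and at 0 after glucose removal, with 0 and 0.0876 CPM in the controls. Against a floor of 3 reads over the glucose-starved group (0.0442 CPM) it was at least 285-fold higher. Gm10371 was at 3.44 and 3.47 CPM against 0, at least 78-fold higher, with 0.0218 and 0.11 CPM in the controls. These genes passed the expression filter only through amino-acid-starved libraries, so their p-values are not given. Both declined with time in amino acid starvation: Gm49132 was at 4.44 and 5.22 CPM at 6 h and 0.651 and 0.189 CPM at 12 h. It had no read in any of the 6 glucose-starved libraries. Gm10371 was at 1.18 and 1.78 CPM and then 0.122 and 0.189 CPM, with 0.0371 CPM in 1 glucose-starved library of 12 h.

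In the annotation used (GENCODE M21) Gm10371 and Gm49132 lie on chromosome 14 and are transcribed away from each other. Together with the coding genes Samd4 and Gch1 the order is Samd4, Gm10371, Gm49132, Gch1. Whether other genes lie between these was not tested. The annotation types Gm10371 as antisense and Gm49132 as TEC, which does not state that Gm49132 is noncoding. As the strand used in counting is not given, the source of the Gm10371 reads is uncertain. Samd4 and Gch1 differed less. Samd4, a translational repressor, was at 149.5 and 133.8 CPM against 107.7 and 97.3 CPM (0.47, edgeR adjusted p = 3.21e-07). Gch1, the first enzyme of tetrahydrobiopterin synthesis, was at 6.06 and 7.24 CPM against 3.28 and 4.85 CPM (0.71, edgeR adjusted p = 0.00046).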
